A study of Mus musculus with 3 samples.

Results

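Expression of the secretory pathway and of the unfolded protein response was examined in cells of the mouse patellar tendon, and set beside the amount of collagen messenger RNA that the same cells carried. The set held 36 genes, taken wherever a row of the count tables bore exactly the gene's symbol, out of 32288 features in all. All 36 symbols were found in the 3 libraries, on 37 rows, because Ddit3 is listed under 2 overlapping identifiers of which the second (ENSMUSG00000116429) was too low to be tested and was kept apart. The cells had been freed from the tendon with collagenase and depleted of haematopoietic and endothelial cells by flow sorting, and single-cell libraries were made with a droplet method that counts transcripts near their 3′ end by unique molecular identifiers (UMIs). All mice were labelled WT, with no treatment named, and there was 1 library at 2 weeks of age and 2 at 20 weeks, named replicates 1 and 2. How many animals went into each is not in the labels. The p-values therefore rest on spread between the 2 libraries at 20 weeks only, and that spread may be technical. It was pooled over genes in large part, and in some fits wholly.

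Secreted proteins enter the endoplasmic reticulum through a membrane channel, are folded there by chaperones and disulfide isomerases, and leave in COPII-coated vesicles, while escaped chaperones are brought back by KDEL receptors. When folding falls behind demand, sensors in the reticulum membrane start the unfolded protein response, whose transcription factors raise chaperones, transport components and the degradation machinery. Tendon fibroblasts make large amounts of fibrillar collagen, a bulky cargo that needs proline hydroxylation, disulfide bonding and an enlarged carrier before it can be secreted.

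The 36 genes were grouped by role. The channel and its associated complex were covered by Sec61a1, Sec61b and Ssr1 to Ssr4. Hspa5 (BiP), Hsp90b1 (Grp94), Hyou1, Dnajb11, Dnajc3, Sdf2l1, Creld2 and Manf are chaperones, their helpers or co-induced reticulum proteins. Calr and Canx are lectin chaperones that hold glycoproteins. Pdia3, Pdia4, Pdia6 and P4hb form disulfide bonds, P4hb is also a subunit of the collagen prolyl 4-hydroxylase, and Ppib is a prolyl isomerase that acts on procollagen. Rcn1 and Rcn3, the reticulocalbins, are calcium-binding proteins of the secretory pathway, and Rcn3 has been tied to collagen production. Kdelr1, Kdelr2 and Kdelr3 are the retrieval receptors. Sec23a and Sec24d are COPII coat proteins, and Mia3 (TANGO1) loads procollagen into carriers. Xbp1, Atf4 and Ddit3 (CHOP) are transcription factors of the stress response, while Creb3l1 (OASIS) and Creb3l2 (BBF2H7) are membrane-bound factors known to drive secretory genes in bone and cartilage. Herpud1 and Sel1l serve the degradation of misfolded proteins.

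Because many of these genes are textbook targets of the stress response, the promoters were read for its response elements, and the matches are shown to let the expression values of genes with and without an element be read against each other. The 250 bases before the start of each gene were taken from RefSeq on GRCm38.p6, where 29 of the 36 genes had an entry (not Creb3l1, Hyou1, Kdelr2, Manf, Rcn1, Sec61a1 or Ssr2). Both strands were searched. The endoplasmic reticulum stress element (ERSE), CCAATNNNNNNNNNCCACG, was found in 7 of the 29, against 0.130% of all 27025 genes with a RefSeq promoter of that length. The shorter ERSE-II, ATTGG and then CCACG with 1 base between them, was found in Herpud1 alone among the 29 and in 0.0370% of all these genes. An unfolded protein response element, TGACGTGG, was found in Kdelr3 and Sec24d and in 0.603% of all genes, and the amino acid response type element TTGCATCA in Herpud1 and in 0.918%. The first 3 of these share the letters CCACG, or CGTGG on the other strand. Matches are printed on the strand of the gene with 5 bases on either side, and the capitals mark the fixed letters of the element:
Hspa5 (chr2:34772020-34772048, plus strand): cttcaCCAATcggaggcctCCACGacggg
Hsp90b1 (chr10:86705633-86705661, minus strand): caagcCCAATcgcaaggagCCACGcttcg
Canx (chr11:50325795-50325823, minus strand): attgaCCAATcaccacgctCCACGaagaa
Pdia6 (chr12:17266486-17266514, plus strand): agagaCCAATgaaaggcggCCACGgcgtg
Dnajc3 (chr14:118937822-118937850, plus strand): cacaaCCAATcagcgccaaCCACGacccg
Calr (chr8:84847070-84847098, minus strand): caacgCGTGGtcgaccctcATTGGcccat
Creld2 (chr15:88819515-88819543, plus strand): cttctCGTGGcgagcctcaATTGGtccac
Herpud1 (chr8:94386372-94386392, plus strand): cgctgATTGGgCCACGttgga
Sec24d (chr3:123267465-123267482, plus strand): gcgccTGACGTGGcacta
Kdelr3 (chr15:79516373-79516390, plus strand): ccccgCCACGTCAccgcg
The ERSE of Calr and of Creld2 and the element of Kdelr3 lie on the strand opposite to the gene, so their letters appear as the reverse complement. Hsp90b1 held another ERSE on the opposite strand, 107 bases before its start. The 250-base windows of Hspa5, Hsp90b1, Calr, Pdia6 and Sec24d overlap an exon of a GENCODE transcript. A match is a run of letters and was not tested for binding or activity.

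After filters and removal of likely doublets, 4767 cells were used at 2 weeks, 606 in 20-week replicate 1 and 1007 in replicate 2, with medians of 6513, 2836.5 and 5132 UMIs per cell. The libraries shared 2, 3 and 0 cell barcodes pairwise. Cells were clustered without the 36 genes and without collagen genes, and clusters were named from marker genes. Tenocyte-like cells (markers Tnmd, Scx, Mkx, Fmod, Comp, Thbs4 and Kera) numbered 644, 241 and 117 in the 3 libraries, progenitor-like cells (markers such as Cd55, Cd248 and Pi16) 715, 118 and 214, and mural-like cells (contractile cells of vessel walls, markers such as Rgs5, Acta2 and Myh11) 637, 44 and 40. Different clusters held most of a class at the 2 ages. At 2 weeks the tenocyte-like cells were mainly cluster 5 (418 cells) and cluster 11 (204), while at 20 weeks they were mainly cluster 7 (231 cells in replicate 1 and 62 in replicate 2) and, in replicate 2, cluster 11 (50). Progenitor-like cells were mainly clusters 1 and 14 at 2 weeks and cluster 6 at 20 weeks. Mural-like cells were mainly cluster 3 at 2 weeks and cluster 10 in replicate 2.

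Collagen load and the level of the 36 genes were both highest in tenocyte-like cells of 2-week mice. Collagen load is the share of all UMIs that came from the 44 collagen chain genes, and the level of the 36 genes is their summed UMIs per 1000000 UMIs that were not collagen, called non-collagen CPM, so that a high collagen share does not lower it. In tenocyte-like cells the collagen load was 14.7% at 2 weeks, 0.720% in 20-week replicate 1 and 1.10% in replicate 2. The summed level of the 36 genes there was 13725, 6830 and 5783 non-collagen CPM. In progenitor-like cells the load was 4.64%, 0.602% and 0.641%, and the summed level was 10328, 6142 and 5444. In mural-like cells the load was 0.804%, 0.414% and 0.479%, and the summed level was 4754, 3706 and 4167. In all 3 classes the 2-week library lay above both 20-week libraries in both quantities. With 1 library at 2 weeks, these differences have no replicate check at that age.

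The gap in the secretory genes was smaller than the gap in collagen. Tenocyte-like cells carried 12.6 collagen UMIs for each UMI of the 36 genes at 2 weeks, and 1.06 and 1.92 in the 20-week libraries. In progenitor-like cells the ratio was 4.71, 0.986 and 1.19, and in mural-like cells 1.70, 1.12 and 1.15. In tenocyte-like cells the collagen load was mainly Col1a1 and Col1a2, the chains of type I collagen. In the other 2 classes at 2 weeks, Col3a1 was above each of these. Progenitor-like cells held 18755 UMIs of Col3a1 per 1000000, against 10710 of Col1a1 and 10143 of Col1a2. Mural-like cells held 1793, against 810 and 706, with 8036 for all collagen chains. Col1a1 in tenocyte-like cells stood at 90140, 1724 and 2681 CPM (counts per 1000000 UMIs, here scaled by the TMM method of edgeR), a log2 fold change of -5.36 ± 0.79 (SE) with an edgeR adjusted p of 2.03e-05. Col1a2 had a log2 fold change of -4.42, with an adjusted p of 0.000234 in the same fit, and Col3a1, of type III collagen, one of -0.82 with 0.884. In progenitor-like cells Col1a1, Col3a1 and Col1a2 all passed the test, with log2 fold changes of -4.06, -3.74 and -2.76. None of these 3 passed in mural-like cells.

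Other named classes reached 20 cells in 1 or 2 libraries only, and values are given for those. Osteogenic-like cells at 2 weeks had a collagen load of 13.7% and a summed level of 10683 non-collagen CPM, and chondrocyte-like cells 4.15% and 9540. Schwann-like cells, the glia of nerves, had 0.927% and 7394, and myogenic-like cells 0.379% and 5686 at 2 weeks against 0.102% and 4653 in 20-week replicate 2. B lineage-like cells, found in replicate 2 although the sort was meant to leave out blood cells, had a load of 0.000662% and a level of 4195. Muscle fibre-like cells of the same library had 0.00212% and 840, the lowest level of the 36 genes in any class measured. RNA free in the droplets was not estimated, and its part in the collagen UMIs of cells that make little collagen was not tested.

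**Figure D1:**
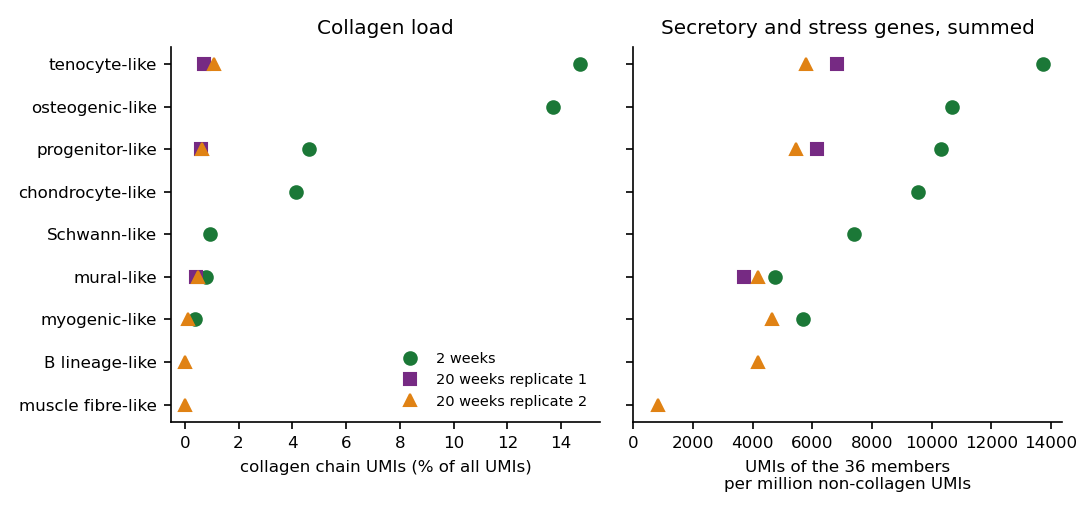
Collagen load (left, percent of all UMIs from collagen chain genes) and summed level of the 36 genes in non-collagen CPM (UMIs per 1000000 non-collagen UMIs, right) in each named cell class, with 1 point per library. Tenocyte-like cells of the 2-week library are the rightmost points in both panels, at 14.7% and 13725 non-collagen CPM, and the 20-week points of tenocyte-, progenitor- and mural-like cells lie to the left of the 2-week point of the same class.

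In tenocyte-like cells, 3 of the 36 genes passed edgeR's quasi-likelihood test at a Benjamini-Hochberg adjusted p under 0.05, all of them lower in the adult libraries. They were Rcn1, Kdelr3 and Rcn3. Over all 7907 genes tested, 1.86% were lower and 2.04% were higher. The log2 fold change, given throughout as 20 weeks over 2 weeks, was negative for 30 of the 36, with a median of -0.55, while 46.8% of all tested genes were negative, with a median of 0.06. The test compares 1 library with 2 and has 1 residual degree of freedom, so the young library is taken to vary as the adult ones do.

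The reticulocalbins had the lowest median log2 fold change of any role in tenocyte-like cells, -2.90. Rcn1 (ENSMUSG00000005973, GRCm38 chromosome 2, 105386291 to 105399319) had 271 CPM at 2 weeks, 34.8 in 20-week replicate 1 and 28.2 in replicate 2. Its young level was 8.55 times the adult one (log2 fold change -3.10, SE 0.65), with an edgeR adjusted p of 0.00231. Rcn3 (ENSMUSG00000019539, chromosome 7, 45082913 to 45092221) had 1341, 214 and 198 CPM, a log2 fold change of -2.71 ± 0.78 with an adjusted p of 0.0391 from edgeR. The 2 adult libraries lay close together for both genes, and the 2-week library stood well above them. The call for Rcn3 was lost with doublets kept (adjusted p = 0.0828), with collagen genes left out of the fit (0.0969) and with sums thinned to equal depth (0.0612), while its log2 fold change stayed between -2.69 and -2.68 in these 3 fits. Over all genes, 147 of 7907 were called lower in the main fit, against 79 of 7959, 64 of 8023 and 85 of 6422 in these.

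Among the KDEL receptors the median log2 fold change was -1.94, and Kdelr3 passed the test. Kdelr3 (ENSMUSG00000010830, chromosome 15, 79516411 to 79527739) had 284 CPM at 2 weeks, 43.9 in replicate 1 and 33.9 in replicate 2. That was 7.26-fold higher at 2 weeks, with a log2 fold change of -2.86 ± 0.65 and an edgeR adjusted p of 0.00491. The other receptors pointed the same way without passing, at -1.94 for Kdelr2 (adjusted p = 0.205) and -1.39 for Kdelr1 (0.458). Kdelr2 had 697 CPM at 2 weeks against 141 and 224.

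All 6 genes of the translocon had negative log2 fold changes in tenocyte-like cells, with a median of -1.38, and none passed the test. Sec61b, a subunit of the channel, had the most negative value, at 1227, 427 and 254 CPM, a log2 fold change of -1.85 ± 0.79 and an adjusted p of 0.282 by edgeR. Ssr2 and Ssr4, of the translocon-associated complex, had -1.82 and -1.76 with adjusted p-values of 0.215 and 0.359. Sec61a1, Ssr1 and Ssr3 were closer to 0, with -0.72 for Ssr1 and -0.55 for Ssr3. The 2-week library was above both 20-week libraries for Sec61b, Ssr2 and Ssr4, though the 2 adult libraries differed from each other, with 665 and 231 CPM for Ssr4.

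None of the chaperones and folding enzymes passed the test. The 8 chaperones and helpers around Hspa5 had a median log2 fold change of 0.04 in tenocyte-like cells, and 4 of the 8 were negative. Hspa5 itself had 534 CPM at 2 weeks, 786 in replicate 1 and 373 in replicate 2, so the 2 adult libraries lay on either side of the young one. Hsp90b1 had 595, 601 and 485 CPM. Sdf2l1, a co-factor of the Hspa5 system, had the most positive value of the 36 genes, 1.33 ± 0.72, at 10.3, 39.4 and 11.3 CPM, with an edgeR adjusted p of 0.501, and only replicate 1 stood apart. Sdf2l1 passed the low-count filter here only through replicate 1. The 5 isomerases were all negative with a median of -0.48, led by Ppib at 1520, 709 and 512 CPM (log2 fold change -1.32 ± 0.80, adjusted p = 0.615). Calr had 302, 265 and 154 CPM, a log2 fold change of -0.52 ± 0.73 (adjusted p = 0.947), and Canx had 0.22.

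Among transcription factors, Creb3l1 (ENSMUSG00000027230, chromosome 2, 91982328 to 92024502) had the most negative value in tenocyte-like cells and did not pass the test. Its levels were 233 CPM at 2 weeks, 68.2 in replicate 1 and 47.0 in replicate 2, with a log2 fold change of -2.01 ± 0.64 and an edgeR adjusted p of 0.0733. With no filter on low counts the adjusted p was 0.0388. The other factors were closer to 0, at -0.71 for Xbp1, -0.39 for Atf4, -0.17 for Creb3l2 and 0.55 for Ddit3. In COPII export, Sec24d had 89.5, 39.4 and 37.6 CPM, a log2 fold change of -1.21 ± 0.58 (adjusted p = 0.392). Sec23a stood at -1.08 and Mia3 at -0.54. In the degradation pathway Herpud1 had 238, 241 and 111 CPM, a log2 fold change of -0.43 ± 0.72 (adjusted p = 0.967), with replicate 1 level with the 2-week library, and Sel1l had -0.14.

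**Figure D2:**
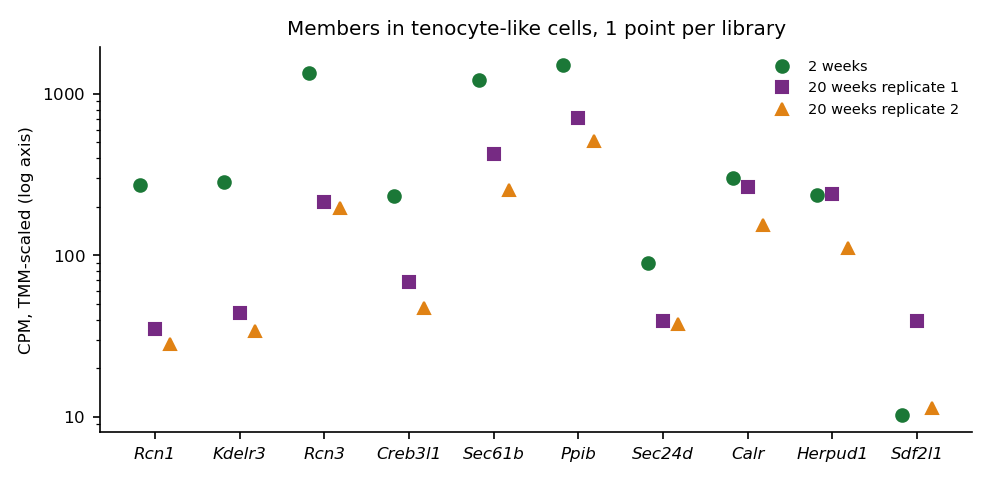
CPM (TMM-scaled, log axis) in tenocyte-like cells for the genes past the threshold and for the gene of each role with the largest log2 fold change, with 1 point per library. For Rcn1, Kdelr3 and Rcn3 the 2-week point is far above both 20-week points, while for Herpud1 and Sdf2l1 20-week replicate 1 is as high as the 2-week library or higher.

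In progenitor-like cells, Rcn1 and Kdelr3 were again lower at 20 weeks, 2 of the 36, against 1.08% lower and 1.11% higher among 9783 genes tested. The log2 fold change was negative for 32 of the 36, with a median of -0.60, while 48.1% of all tested genes were negative, with a median of 0.03. Rcn1 had 215, 45.1 and 38.5 CPM, a log2 fold change of -2.39 ± 0.49 and an edgeR adjusted p of 0.00536. Kdelr3 had 148, 50.7 and 30.8 CPM, a log2 fold change of -1.95 ± 0.49 and an adjusted p of 0.0291 in the same edgeR fit. Neither call held with collagen genes left out (adjusted p = 0.190 and 0.344) or with no filter on low counts (0.871 for both), and in both fits the log2 fold changes were within 0.06 of those given here. Those 2 fits called 0 of 9789 and 0 of 16265 genes, so the loss was not particular to these members. Their prior degrees of freedom were 5.11 and 2.53, against 24.6 in the main fit. With DESeq2 the call for Kdelr3 was lost (adjusted p = 0.433).

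No other member passed in progenitor-like cells. Rcn3 had 597, 206 and 107 CPM and a log2 fold change of -1.96 ± 0.55 (edgeR adjusted p = 0.0598). Ssr2 had 314, 124 and 62.2 CPM, a log2 fold change of -1.81 with an adjusted p of 0.0825. The chaperones around Hspa5 were negative for 7 of 8, with a median of -0.37, the isomerases had a median of -0.73 and the translocon one of -0.68. The transcription factors had a median of 0.17, with 2 of 5 negative. Creb3l1 was low in replicate 1, at 62.2, 16.9 and 40.6 CPM, and Ddit3 had the most positive value, 1.00, at 28.6, 73.3 and 46.2 CPM with an adjusted p of 0.573.

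**Figure D3:**
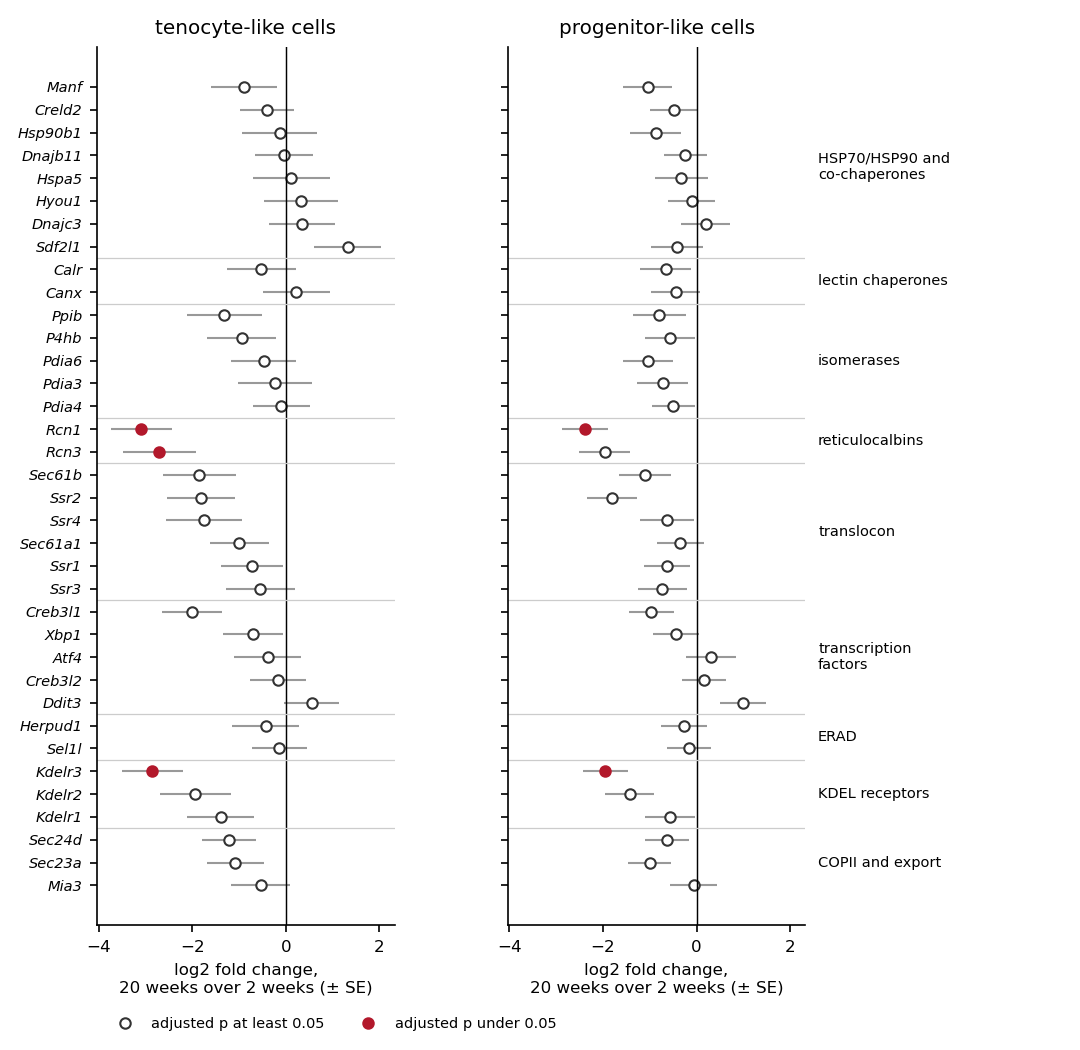
Log2 fold changes (20 weeks over 2 weeks, points) with their standard errors (lines) for the 36 genes by role in tenocyte-like cells (left) and progenitor-like cells (right). Filled red points have an edgeR adjusted p under 0.05. They are Rcn1, Rcn3 and Kdelr3 on the left and Rcn1 and Kdelr3 on the right, and most of the other points lie left of 0.

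In mural-like cells none of the 22 members tested passed, against 0.216% of 2317 genes in either direction, and none had an unadjusted p under 0.05 with edgeR or with DESeq2. Of all 2317 genes, 76 were under that p by edgeR and 75 by DESeq2. The other 14 members, Rcn1, Kdelr3 and Creb3l1 among them, were too low for the test in the small 20-week sums. Of the 22, 16 were negative, with a median of -0.31 against 0.04 over all tested genes. Rcn3 had 375, 143 and 70.1 CPM, from 1233, 10 and 5 UMIs, and a log2 fold change of -1.82 ± 1.01 (adjusted p = 1.00 by edgeR). Endothelial markers stood at 720 CPM, without TMM scaling, in the mural-like cells of replicate 2, against 5.61 at 2 weeks and 0 in replicate 1, and their part in these values was not tested.

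Whether the age difference itself differed between classes was tested with the library as a block. None of the 36 genes passed for tenocyte-like against mural-like cells, where 0.421% of 9267 genes did in either direction, or for tenocyte-like against progenitor-like cells, where 2.17% of 10054 did. In the first comparison 1 member had an unadjusted p under 0.05 by edgeR, beside 475 of the 9267 genes. The member was Rcn1 (edgeR adjusted p = 0.187), which mural-like cells held at 148, 3 and 5 UMIs. Rcn1 and the other 13 members too low for the test in mural-like cells were also tested here. The filter of this comparison could be met by 1 sum of either class. With such low mural-like counts of these members, no size is given for this comparison. In the second, 1 member again did, Ssr4, with a difference of -1.23 ± 0.60 and an adjusted p of 0.602 by edgeR, beside 769 of the 10054 genes. DESeq2, which gave no adjusted p for 8624 and 9161 of the genes, called no member in either. It had 1 and 0 members at an unadjusted p under 0.05, beside 154 and 201 of all genes. The median difference over the 36 was -0.25 against progenitor-like cells, where 0.01 was the median over all genes tested.

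Summed over all cells of a library, no gene in the transcriptome passed edgeR's test, 0% of 13230, so none of the 36 did. Unadjusted p-values under 0.05 were found for 1028 genes, 6 members among them, and DESeq2 called 1 member, Kdelr3 (log2 fold change -2.09, adjusted p = 0.0458). The 6 included Kdelr3 at 148, 43.2 and 26.7 CPM, Rcn1 at 170, 63.2 and 36.8 and Rcn3 at 609, 208 and 103. Of the 36, 26 were negative with a median of -0.39, against 47.8% of all genes and a median of 0.03. These sums mix changes in the cells present with changes within cells, which cannot be told apart here.

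Because most of a class came from different clusters at the 2 ages, the test was repeated inside the 4 clusters with at least 20 cells in each library, a comparison added after seeing the data. Cluster 7, the tenocyte-like cluster with 22, 231 and 62 cells, gave 0 called members of 34, against 3.33% of 4420 genes in either direction, with 5 members under an unadjusted p of 0.05 by edgeR and 0 by DESeq2. Of all 4420 genes, 501 were under that p by edgeR and 171 by DESeq2. There, Kdelr3 had 126, 47.4 and 33.2 CPM (log2 fold change -1.59 ± 0.67, adjusted p = 0.241) and Rcn1 101, 40.4 and 33.2 (-1.42 ± 0.70, 0.414). Rcn3 had 427, 235 and 170 CPM and -1.07 (adjusted p = 0.612). Creb3l1 was level inside this cluster, at 67.0, 72.0 and 53.9 CPM, from 8 UMIs at 2 weeks. Mia3, at 3, 45 and 26 UMIs, and Ddit3, at 1, 39 and 14, had positive values of 1.86 and 2.87 with edgeR adjusted p-values of 0.362 and 0.209. Both passed the low-count filter in this cluster only through the 20-week libraries, where they were higher. The median over the 34 was -0.33, with 20 negative, against 0.13 over all genes tested. The values in cluster 7 were thus nearer 0 than in the whole class for Rcn1, Kdelr3, Rcn3 and Creb3l1, a difference that was not tested.

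Cluster 0, without a name and led by Penk, Sfrp1 and Klf5, had 695, 27 and 56 cells and gave 1 lower member of 34, Kdelr3, against 1.04% lower among 4882 genes. Kdelr3 had 533, 0 and 8 UMIs there, a log2 fold change of -2.60 ± 0.70 with an edgeR adjusted p of 0.0128, which DESeq2 did not call. Kdelr3 passed the low-count filter in this cluster only through the 2-week library, where it was high. Ssr2 was next, at 396, 96.3 and 111 CPM and -1.90 ± 0.58 (adjusted p = 0.0517). Cluster 9, without a name and led by Mmp3 and Cxcl14, with 125, 99 and 46 cells, gave 0 called of 35, against 1.86% of 5153 genes, with 2 members under an unadjusted p of 0.05 by edgeR and 1 by DESeq2. Of all 5153 genes, 477 were under that p by edgeR and 147 by DESeq2. Kdelr3 had 144, 37.6 and 62.7 CPM in cluster 9 and Ssr2 505, 165 and 125, at -1.51 and -1.80. Cluster 10, mural-like, with 195, 27 and 39 cells, gave 0 called of 19, against 0.210% of 1901 genes, and none under an unadjusted p of 0.05 with either tool. Of all 1901 genes, 44 were under that p by edgeR and 27 by DESeq2. Medians over the members tested were -0.63, -0.55 and -0.44 in clusters 0, 9 and 10, against 0.05, 0.06 and 0.09 over all genes.

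Markers of several other cell types also differed between the ages within the tenocyte-like and progenitor-like cells. The 7 tenocyte markers were all detected in each library and summed to 17772 CPM, without TMM scaling, at 2 weeks, 18671 in replicate 1 and 17264 in replicate 2. The 4 markers of synovial lining, among them Prg4, had 616 CPM at 2 weeks against 9433 and 5477, and the 8 progenitor markers 185 against 1127 and 790, as sums with no test. The 8 osteogenic markers stood at 6.20, 880 and 127. Replicate 2 alone also held cluster 22, 44 cells with Ibsp and Spp1 among their leading genes, which took no name and lay outside the class. Chondrocyte markers, at 525, 280 and 71.1, and mural markers, at 645, 182 and 140, were lower at 20 weeks. The 6 endothelial markers summed to 4.25, 0 and 8.61 and the 7 myeloid markers to 5.32, 2.76 and 92.6. The genes of a dissociation and heat-shock list summed to 11706, 15418 and 10008 CPM, and none of 20 passed the age test in tenocyte-like cells, with a median log2 fold change of -0.23. In progenitor-like cells the list summed to 8217, 13068 and 15398 CPM, and none of 20 passed, with 3 negative and a median of 0.92. In the test of tenocyte-like against progenitor-like cells, all 20 differences were negative, with a median of -1.05, and 4 passed (Hspa1a, Zfp36, Nr4a1 and Dnajb1). In progenitor-like cells haemoglobin and other erythroid markers stood at 711, 2.59 and 5.95, synovial lining markers at 134, 1391 and 1206, and muscle fibre markers at 31.9, 5.17 and 321. Median UMIs per tenocyte-like cell were 7827, 2968 and 3490. The part of these differences in the results for the 36 genes was not tested.

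A wider set of 108 secretory genes, in lists for the translocon, folding, oligosaccharyltransferase, vesicle coats, degradation and stress response, was measured alongside. In tenocyte-like cells 102 were tested, 3 were lower and none was higher, 82 were negative and the median log2 fold change was -0.49, beside 1.86% lower and 46.8% negative among all genes tested. The 3 were Fkbp11 (-3.17 ± 0.66, edgeR adjusted p = 0.00216) and Fkbp14 (-2.72 ± 0.62, 0.00484), both prolyl isomerases of the reticulum, and Creb3 (-2.20 ± 0.58, 0.0202), a membrane-bound factor related to Creb3l1. In progenitor-like cells 105 were tested, 3 were lower, none was higher, 80 were negative and the median was -0.40, beside 1.08% lower and 48.1% negative among all genes. There, Fkbp11 (-2.90 ± 0.49, edgeR adjusted p = 0.000716), the disulfide isomerase Pdia5 (-2.66 ± 0.55, 0.00520) and the collagen-binding isomerase Fkbp10 (-1.88 ± 0.49, 0.0407) were lower. In mural-like cells 39 were tested and none passed.

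The genes that modify and chaperone collagen were a separate list of 13. In tenocyte-like cells, of 12 tested, 4 were lower. They were the collagen chaperone Serpinh1 (2092, 261 and 267 CPM, log2 fold change -2.99) and genes of collagen prolyl hydroxylation, Crtap (-2.71), P4ha1 (-2.61) and P3h1 (-2.21). P4ha2, another prolyl 4-hydroxylase subunit, was higher at 20 weeks, at 7.90, 83.3 and 18.8 CPM (2.70 ± 0.71, edgeR adjusted p = 0.0187), with replicate 1 far above replicate 2. In progenitor-like cells Serpinh1 alone of 12 passed, at 1273, 271 and 234 CPM (-2.34 ± 0.55, adjusted p = 0.0155 by edgeR). P4hb, the partner subunit of the hydroxylases among the 36 genes, had 396, 244 and 167 CPM in tenocyte-like cells, a log2 fold change of -0.95 with an adjusted p of 0.785.

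Across clusters of the 2-week library, the summed level of the 36 genes followed the collagen load closely. Over 19 clusters of at least 20 cells, collagen load ran from 0.318% to 17.8% and the summed level from 4508 to 14223 non-collagen CPM, with Pearson's r of 0.93 on log values and Spearman's rho of 0.91. Without the 2 clusters farthest from the median load, r was 0.90. In 20-week replicate 2, r was 0.70 and rho 0.90 over 11 clusters, which include the B lineage-like and muscle fibre-like clusters near 0 collagen, and r was 0.73 without these. In replicate 1 there were 7 clusters with loads between 0.542% and 1.55%, r was 0.51 and rho 0.32, and r turned negative, -0.37, without the 2 clusters farthest from the median. The relation in replicate 1 therefore rests on those 2 clusters. Clusters of a library share its depth, handling and free RNA, so these are descriptions with no test.

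**Figure D4:**
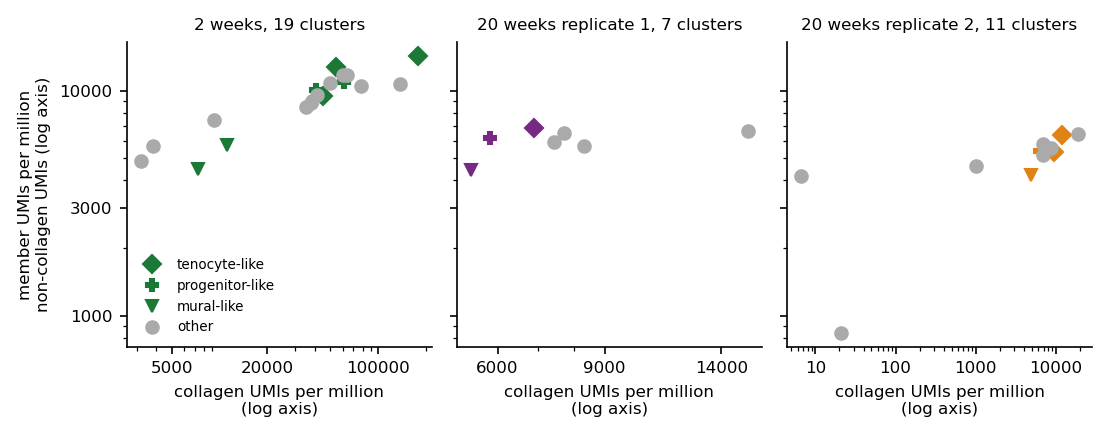
Summed level of the 36 genes (UMIs per 1000000 non-collagen UMIs) against collagen UMIs per 1000000 UMIs in clusters of at least 20 cells (log axes, 1 panel per library, each with its own x range). At 2 weeks the 19 clusters run from 4508 at low to 14223 at high collagen load, while the 7 clusters of 20-week replicate 1 span a narrow range of collagen.

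Single members differed in how closely they tracked collagen at 2 weeks. The median rho over 34 members with a mean of at least 20 non-collagen CPM over the clusters was 0.71, and 24 of the 34 were at 0.5 or above, while over 6028 genes the median was -0.08 and 10.3% were at 0.5 or above. Creb3l1 had the highest rho, 0.99, and its level ran from 1.72 to 311 non-collagen CPM, with a median of 71.5. It stood at 245 in tenocyte-like, 252 in osteogenic-like, 71.5 in chondrocyte-like, 65.4 in progenitor-like, 4.75 in mural-like and 4.31 in myogenic-like cells. Kdelr3 (rho 0.94), Rcn3 (0.92), Kdelr2 (0.90), Sec61b (0.89), Sec24d (0.88) and Xbp1 (0.87) came next. At the other end, Creb3l2 had -0.02, Canx 0.04, Ddit3 0.19, Dnajb11 0.22, Pdia4 0.24, Atf4 0.30 and Hspa5 0.35. Hspa5 varied less between clusters, from 424 to 948 non-collagen CPM.

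By role at 2 weeks, rho with collagen was 0.94 for the reticulocalbins, 0.93 for the KDEL receptors, 0.90 for the translocon and 0.89 for COPII export. It was 0.80 for the transcription factors, 0.78 for degradation, 0.72 for the isomerases, 0.50 for the chaperones around Hspa5 and 0.40 for the lectin chaperones. In 20-week replicate 2 the median over 33 members was 0.62, with 22 at 0.5 or above, against 0.08 and 18.03% over 6313 genes, and Rcn3 (0.96) and Creb3l1 (0.87) were again high. In replicate 1 the median over 35 members was 0.07, with 3 at 0.5 or above, against -0.14 and 9.36% over 5298 genes. The 3 were Rcn1 (0.82), Hspa5 (0.61) and Hsp90b1 (0.54). Herpud1 departed from collagen in replicate 2, where B lineage-like cells held the highest class level of it, 818 non-collagen CPM, at a collagen load near 0.

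Within a class, the summed level of the 36 genes was higher in cells with more collagen, though in some classes other genes were too. Cells of each class with at least 80 cells in a library were placed in 4 ranges of equal size by their collagen share. In tenocyte-like cells at 2 weeks the mean load ran from 4.09% to 23.3%, and the summed level ran from 12047 to 14819 non-collagen CPM, a ratio of 1.23. In 20-week replicate 1 it ran from 5393 to 8286 (1.54) with loads of 0.159% to 1.68%, and in replicate 2 from 4618 to 6724 (1.46). Progenitor-like cells gave ratios of 1.24, 1.40 and 1.23 in the 3 libraries. At 2 weeks mural-like cells gave 1.28, chondrocyte-like cells 1.19 and osteogenic-like cells 1.17. All 9 ratios were above 1. Beside all genes, with 5 CPM added to both levels, the members' median log2 ratio of the highest to the lowest range in progenitor-like cells was 0.35, 0.38 and 0.38 in the 3 libraries, against 0.07, 0.06 and 0.13. Members at least 1.5-fold higher there were 8 of 36, 14 of 34 and 9 of 34, against 16.8%, 29.6% and 21.5% of genes. In mural-like cells at 2 weeks they were 16 of 32 against 37.0% of genes, and in chondrocyte-like cells 9 of 34 against 12.2%. In osteogenic-like cells they were 10 of 35 against 28.1%, near the share of all genes, with medians of 0.10 and 0.15. The ranges are set within a library, and those of tenocyte-, progenitor- and mural-like cells hold more than 1 cluster.

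**Figure D5:**
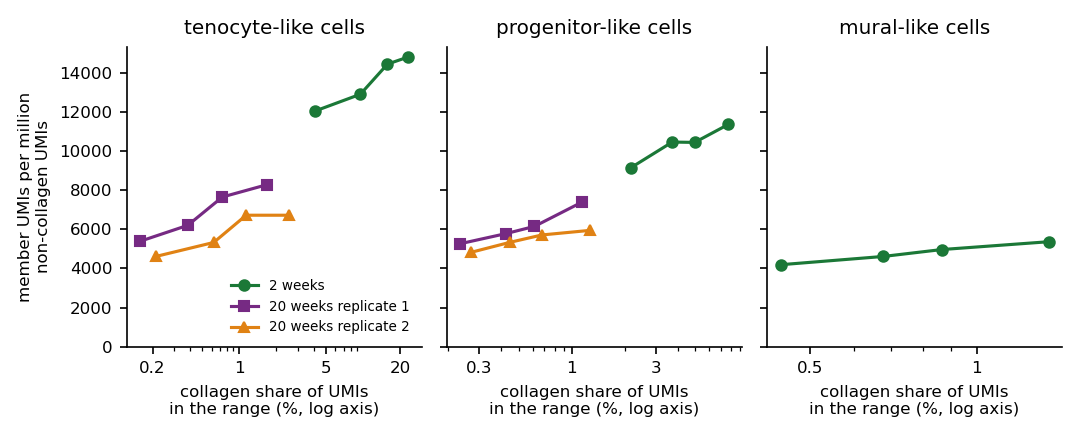
Summed level of the 36 genes (UMIs per 1000000 non-collagen UMIs) in the 4 ranges of collagen share (mean share on a log axis, in percent of UMIs) within tenocyte-, progenitor- and mural-like cells, with 1 line per library. Each line ends higher in the highest range than it starts in the lowest, and at 2 weeks the lowest tenocyte-like range, at 12047, lies above the highest 20-week range, at 8286.

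The members did not all go with collagen inside the tenocyte-like class. Its 2-week cells were mainly cluster 5, with a collagen load of 17.8%, and cluster 11, with 5.41%. The part of this difference between clusters in the ranges was not tested. At 2 weeks, 12 of 34 members were at least 1.5-fold higher in the highest range than in the lowest and 4 were as much lower, against 13.6% and 20.1% of 5233 genes, and the median log2 ratio was 0.22 against -0.13. Creb3l1 was higher in each higher range, at 50.6, 191, 317 and 357 non-collagen CPM. Rcn3 had 758, 1225, 1714 and 1720, and Mia3 66.2, 76.4, 119 and 186. Calr ran the other way, at 475, 362, 243 and 244, and Hspa5 at 663, 574, 528 and 511. Creb3l2 and Pdia6 also had negative log2 ratios, -1.29 and -1.15.

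At 20 weeks a larger share of all genes, members included, was higher in the highest collagen range of tenocyte-like cells, and the ages were not compared by a test. A range held 29 to 61 cells and 585 to 1425 member UMIs at 20 weeks, against 161 cells and 12380 to 20608 at 2 weeks. Smaller counts widen the scatter of such ratios, and the part of this in the shares was not tested. In replicate 1, 24 of 36 members were at least 1.5-fold higher in the highest range and none was as much lower, against 33.2% and 15.3% of 4806 genes. In replicate 2 they were 18 and 2 of 34, against 33.7% and 23.4% of 5725. Hspa5, whose level was lower in each higher range at 2 weeks, stood at 571, 567, 907 and 861 non-collagen CPM in replicate 1 and 284, 405, 567 and 500 in replicate 2. Creb3l1 in replicate 1 had 75.7, 39.7, 28.7 and 105, from 5 to 18 UMIs a range, with no steady order. Mia3 had a positive log2 ratio in all 9 combinations of class and library, from 0.05 to 1.42.

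Members with an ERSE or ERSE-II and members without either can be set side by side. The 8 with an ERSE or ERSE-II had a median log2 fold change with age of -0.27 in tenocyte-like cells, between -0.52 and 0.35, and the 21 with a promoter entry and neither element had -0.71, between -2.86 and 1.33. The 21 include Kdelr3 and Sec24d, which hold the unfolded protein response element, and Kdelr3 sets the lower limit. In progenitor-like cells the medians were -0.46 and -0.57, and in mural-like cells -0.27 and -0.28 over the 6 and 13 tested. The median rho with collagen load across 2-week clusters was 0.44 for the 8 and 0.78 for the 20 others with a value. At 20 weeks the medians were 0.18 and 0.05 in replicate 1, the opposite order, and 0.57 and 0.62 in replicate 2. Inside 2-week tenocyte-like cells, 7 of the 8 had lower levels in the highest collagen range than in the lowest, with a median log2 ratio of -0.32, as did 6 of the 20 others, with a median of 0.46. In the tenocyte-like cells of the 20-week libraries the medians were 0.82 for the 8 and 0.75 for the others in replicate 1, and 0.58 for both in replicate 2. Rcn1 and Creb3l1 have no promoter entry and are in neither group, and these medians were not tested.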

How the data were processed

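The authors deposited UMI counts per gene and barcode for each of 3 libraries, made with Cell Ranger 6.1.2 on mm10 per the submitters' processing notes. The annotation release is not given in the sources used here. The members, roles and lists were chosen with earlier results of these data known. Barcodes with at least 500 genes, 1000 UMIs and at most 10% mitochondrial UMIs were kept (4964, 609 and 1015). Doublets were scored as scrublet defines, with exact neighbours, and the number expected from loading (0.8% per 1000 barcodes), 197, 3 and 8 of the highest scores, was left out. Clustering (scanpy 1.11.5, 2000 variable genes, 30 components, 15 neighbours, Leiden resolution 1) left out the members, collagen chains and genes of cell cycle, dissociation, sex-linked, mitochondrial, ribosomal and haemoglobin origin. Resolution 0.5 had been planned as the main setting. It merged Scx with Ibsp and Spp1 cells in a cluster without a name, so the settings were swapped from marker genes before any member was tested. A cluster took a name with 2 markers among its 10 leading genes and 3 detected.

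Counts were summed per library and class (at least 20 cells) and tested with edgeR 4.0.16 (R 4.3.3, TMM, filterByExpr, Benjamini-Hochberg over all genes), with DESeq2 1.42.0 as the alternative. The tests were checked on simulated counts. Full values are given for members past the threshold and for the member with the largest absolute log2 fold change of each role in tenocyte-like cells, and the other members named were chosen after their values were seen. Library totals were 35556626, 1886785 and 5849867 UMIs. Depth within a class limits the low genes most in mural-like cells, where the 20-week sums held 95105 and 76439 UMIs.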

Additional observations from a re-analysis of the deposited data

How the results depend on the processing

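No paired analysis was possible because the 2-week age has a single library, so no 2 pairs can be formed between the ages. Resolution 1 became the main setting and 0.5 the alternative after marker genes had been seen, and the tests inside clusters were also added after seeing the data. The number of members past the threshold in all cells, 0, was 1 with DESeq2 and 2 with no filter on low counts. In progenitor-like cells, 2 became 1 with DESeq2, 4 with RLE normalization, 4 with doublets kept, 4 at resolution 0.5, 0 with no filter and 0 with collagen genes left out. With no filter or with collagen genes left out, no gene in the transcriptome passed. Genes called lower, 106 of 9783 in the main fit, were 33 with DESeq2 and 157 with RLE. They were 164 of 9806 with doublets kept and 168 of 9522 at resolution 0.5. In tenocyte-like cells, 3 became 4 with no filter and 2 with collagen left out, thinned or with doublets kept. Genes called lower there, 147 of 7907 in the main fit, were 203 of 16557, 64 of 8023, 85 of 6422 and 79 of 7959 in the same order. The median of the mural-like members, -0.31, was -0.23 with DESeq2 and with RLE, -0.71 with no filter, -0.21 thinned and -0.39 with doublets kept. With fibrillar chains only, the log2 ratio of collagen share between ages was 3.39 in all cells and 3.33 in progenitor-like cells. With cells thinned to 1500 UMIs, the ratio of member levels between collagen ranges was 1.74 in tenocyte-like cells of replicate 2 and 1.05 in osteogenic-like cells.

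Leaving out each 20-week library in turn moved the members' median log2 fold change between -0.80 and -0.15 in all cells, -0.96 and -0.33 in tenocyte-like, -0.66 and -0.40 in progenitor-like and -0.46 and -0.40 in mural-like cells. The log2 ratio of member levels at 2 weeks to the 20-week mean moved between 0.59 and 0.88, 1.01 and 1.25, 0.75 and 0.92, and 0.19 and 0.36, in the same order. The sign of a log2 fold change differed when 1 or the other 20-week library was left out for Calr (-0.88 without replicate 1, 0.053 without replicate 2) and Sdf2l1 (-0.40, 0.94) in all cells, and for Herpud1 in tenocyte-like cells (-1.09, 0.019), in the same order. It did so too for Creb3l1 (-0.28, 0.094) and Herpud1 (-0.061, 1.10) in cluster 7 and for Creb3l1 (0.086, -0.73) and Herpud1 (0.33, -0.11) in cluster 9. With stricter filters Herpud1 in progenitor-like cells had 0.093. The cause was not tested. The tenocyte-like test and both tests between classes could not be run at resolution 0.5, nor the mural-like test with stricter filters, for lack of cells.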
